A study of Phragmites australis with 7 samples.

Results

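The photosynthetic cells described here are 2239 segmented cells of a single section through a bud of common reed (Phragmites australis), the tall wetland grass. They were chosen by counts of 9 nuclear genes of the photosystems, called the gate genes below, in cells with at least 100 genes detected: a photosynthetic cell had 3 or more raw counts summed over the gate genes and 0 counts of PDF1 (PaChr8.1038), the reed match of PROTODERMAL FACTOR1, a gene of the protoderm and epidermis. Of 78619 segmented cells, 64404 had at least 100 genes and 8594 of these passed the gate at any PDF1 count. The other 6355 gate cells held 1 or more counts of PDF1 and were not members. The reference was the pool of 39999 cells with 0 gate counts and 0 PDF1 counts, from which 1 cell was drawn for each photosynthetic cell within the same bin of total counts, 0.1 wide on the log2 scale. These are called matched cells.

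The section came from NAint61, a plant of the North American invasive population, and the same plant gave 1 of 6 single-cell libraries. The other libraries were from the invasive plants NAint113 and NAint191 and from EU60, EU78 and EU620 of the European (EU) population, with 1 library per plant. All plants were grown in a common garden without treatment, and buds were pooled within a plant for the single-cell libraries. The labels give the tissue as shoot, while the single-cell protocol names the tip of the rhizome, and the ages of the plants were not given in the sources used here. A segmented cell is an outline drawn by software on the stained image, and the counts under it can include RNA of a neighbour. With 1 section there is no replicate, so its values are given without a test and their 95% intervals cover counting error only.

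In a leaf, light is captured by chlorophyll bound to light-harvesting proteins around photosystems II and I of the thylakoid membrane. Electrons pass between the photosystems through the cytochrome b6f complex and plastocyanin, and the energy gained drives the Calvin cycle, which fixes carbon dioxide in the plastid stroma. Most of these proteins are encoded in the nucleus, while the plastid keeps genes of its own, such as those of core photosystem subunits and of the large subunit of Rubisco. In young shoots this machinery is built up while proplastids become chloroplasts, mainly in mesophyll, and ordinary epidermal cells of grasses contain little of it.

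Total counts were matched between the sets, with a median of 901 counts in photosynthetic cells and 898.5 counts in matched cells over 2234 pairs. Before matching, the photosynthetic cells had 113 to 5041 counts, with a median of 904 counts, against a median of 366 counts in the pool. Their median number of genes was 747. The single-cell libraries held 7154 to 15297 cells and 95335255 to 132478792 counts of unique molecular identifiers (UMIs). Any pair of these libraries shared between 14 and 52 cell barcodes, at most 0.451% of the smaller library. Doublets were not removed from either data set.

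The counts that chose the cells were low. A photosynthetic cell had a median of 5 gate counts, with a range of 3 to 41, and these made up a median of 0.652% of its counts. Just inside the gate, 603 cells had exactly 3 counts, 26.9% of the photosynthetic cells, and just outside it 1279 cells had 2 counts. Of the cells with 3 counts, 85.2% lay in the smaller of the 2 large pieces of the section described below, and of those with 2 counts 58.6% did. At the upper end, 407 cells had 10 or more gate counts and 406 of them were in that piece. Gate counts were spread over several genes in most cells: 1672 cells, 74.7%, had counts of 3 or more gate genes, 548 cells had counts of 5 or more, and 80 cells, 3.57%, had counts of 1 gene alone.

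LHB1B2 (PaChr12.1613), which encodes a chlorophyll-binding protein of the main antenna of photosystem II, gave 6158 gate counts, 41.4% of all, and was seen in 87.9% of the photosynthetic cells. LHCB4.2 (PaChr16.626), the minor antenna protein CP29, gave 2001 counts and was seen in 54.0% of them. PSBR (PaChr14.449), a small photosystem II protein, gave 1622 counts, and LHCA2 (PaChr15.1005), an antenna protein of photosystem I, gave 1325 counts. The 2 copies of PSAE-2, a stromal subunit of photosystem I, gave 1413 counts (PaChr15.546) and 612 counts (PaChr16.970). PSAH-2 (PaChr12.1570), a photosystem I subunit near the docking site of mobile antenna, gave 721 counts, and the copies of PSBQ, of the oxygen-evolving complex, gave 665 counts (PaChr15.855) and 365 counts (PaChr16.675). These are raw counts without correction for transcript length, and reads shared by near-identical copies may have been split between them. Without LHB1B2, 1449 of the photosynthetic cells, 64.7%, still had 3 or more counts of the other 8 genes.

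Each gate gene was then read in cells that the other 8 had chosen, so that its own counts did not enter the choice. LHB1B2 had 41.2 times the share of counts in cells with 3 or more counts of the other genes as in matched cells with none (95% interval 33.997 to 50.5), with 81.4% and 6.42% of cells holding a count. For LHCA2 the ratio was 34.02, for PSAH-2 30.3, for LHCB4.2 23.1 and for PaChr15.546 (PSAE-2) 18.7. PSBR followed at 15.8, with the PSBQ copies at 14.39 (PaChr16.675) and 11.1 (PaChr15.855). The PSAE-2 copy PaChr16.970 was apart from the rest, at 3.34 times over the whole section. Within the smaller piece alone its ratio was 9.98, and the other 8 genes lay between 15.7 (PaChr16.675) and 32.1 (LHB1B2).

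The members lay almost wholly in 1 part of the section. The segmented cells formed 2 large pieces of tissue, a small fragment and scattered cells, where a piece is a set of cells linked by gaps of at most 150 position units. The unit of the positions is not given in the sources used here, and the median distance to the nearest cell was 29.2 units. The smaller large piece, with 24171 cells, held 2121 photosynthetic cells, 94.7% of all, which were 8.78% of its cells (exact binomial 95% interval 8.42 to 9.14%). The larger piece, with 37991 cells, held 93, 0.245% of its cells (0.198 to 0.2998%). The fragment held 0 of 565 cells, which allows up to 0.651% by the same interval, and 25 were among 1677 scattered cells.

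**Figure D1:**
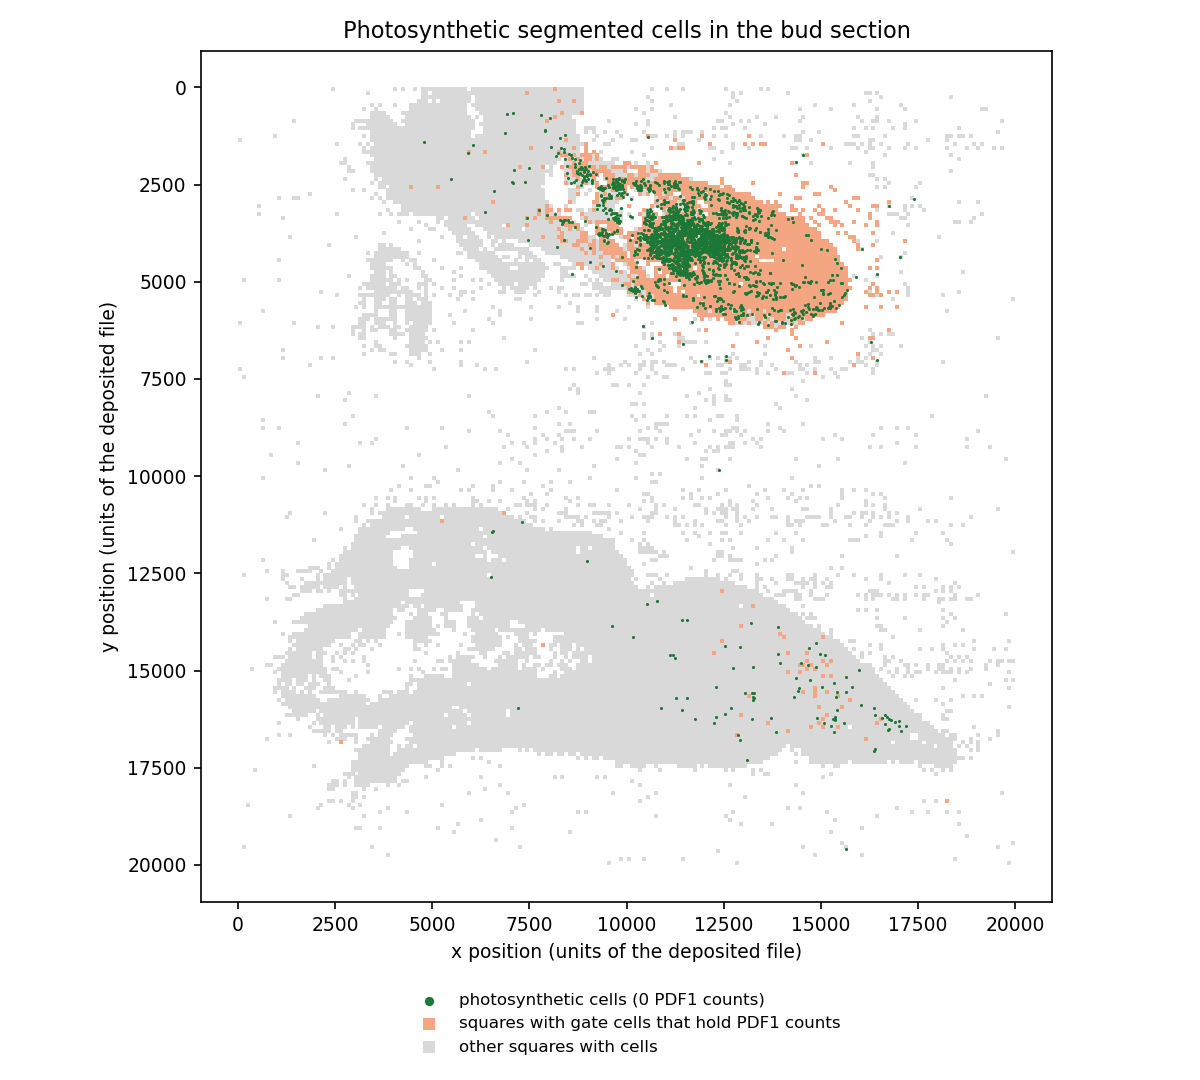
Positions of the segmented cells, in units of the deposited file on both axes. Green points are the 2239 photosynthetic cells, orange squares of 100 units hold gate cells with PDF1 counts, and grey squares hold other cells. Most green points lie in the smaller piece, with 93 in the larger piece.

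Depth differed between the pieces, and the shares differed within classes of like depth. The median total was 747 counts in the smaller and 385 counts in the larger piece. Among cells with 400 to below 800 counts, photosynthetic cells were 8.60% of the smaller piece and 0.211% of the larger piece. Among cells with 800 to below 1600 counts they were 11.6% and 0.608%. When every cell was thinned to 300 counts and the gate applied anew, 1382 of 20558 cells of the smaller piece passed, 6.72%, and 11 of 23786 cells of the larger piece, 0.0462%. Gate cells irrespective of PDF1 showed the same order, with 34.4% of the smaller and 0.382% of the larger piece.

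Further photosynthesis genes were high together in these cells in the smaller piece, while in the larger piece their sum differed by less than the counting error. Photosynthesis was followed with 26 further genes of the mesophyll marker list of the study that are not gate genes: 7 of photosystem I, 8 of photosystem II, 3 of electron carriers, 6 of the Calvin cycle and triose export, and 2 of chlorophyll synthesis and thylakoid shape. That list was found by the study in the 6 single-cell samples, which include NAint61, so the direction of its genes is not independent of these plants. In the 92 matched pairs of the larger piece, the 26 genes together had 78 counts in the gated cells and 72 counts in matched cells, a ratio of 1.08 (0.774 to 1.51). None of them reached the 20 counts needed there for a value of its own, while of the 2088 genes that did, 5.51% were at least 2-fold higher and 6.27% at least 2-fold lower in the gated cells. By group, photosystem I stood at 2.36 there (1.13 to 5.28, 26 counts against 11), photosystem II at 0.877 (0.472 to 1.62), and the 6 plastid genes on unplaced scaffolds, outside the 26, at 2.61 (1.34 to 5.38, 34 counts against 13). In the smaller piece the 26 genes had 19421 counts in photosynthetic cells and 1993 counts in matched cells, a ratio of 9.80 (9.36 to 10.3). The 93 cells of the larger piece are therefore called gated cells below. They had a median of 3 gate counts and at most 5, and PSAE-2 PaChr16.970 made up 24.1% of their gate counts, against 4.11% over all photosynthetic cells.

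Over the whole section, the 26 genes together were 11.99 times as high in photosynthetic cells as in matched cells (11.4 to 12.6). However, only 36.6% of the matched cells lay in the smaller piece. Values below are therefore given for the 2116 pairs within the smaller piece unless the whole section is named, with shares of counts computed without the gate genes. A gene was measured where both sets together held at least 20 counts, and called where the ratio was at least 2-fold. In the smaller piece, 21218 genes were measured, of which 2252, or 10.6%, were at least 2-fold higher and 4080, or 19.2%, at least 2-fold lower in photosynthetic cells. Over the whole section, 22665 genes were measured, with 9.43% higher and 27.5% lower.

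All 26 photosynthesis genes were at least 2-fold higher in photosynthetic cells, in the smaller piece and in the whole section, against the 10.6% and 9.43% of all genes. Their median ratio was 14.9 in the smaller piece, beside a median of 0.838 over all measured genes, and 18.2 over the whole section, beside 0.748. The lowest ratio in the smaller piece was 2.42 and the highest 47.7, and the lower bound of the interval was at least 2.11 for each gene.

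The 7 photosystem I genes together stood at 20.2 times the matched cells (17.9 to 23.0). PSAN (PaChr22.553), a lumenal subunit, had 664 counts in photosynthetic cells and 14 in matched cells, a ratio of 47.7 (28.2 to 87.8), and was seen in 23.6% of photosynthetic cells and 0.662% of matched cells. PSAF (PaChr5.282 and PaChr2.1259), which docks plastocyanin, had ratios of 24.5 and 16.3. PSAG (PaChr17.717), which helps to anchor the antenna, had 826 counts against 38, a ratio of 21.9. PSAL (PaChr22.703), at the face where antenna can dock, stood at 20.6, and PSAD-2 (PaChr4.2394), which docks ferredoxin, at 19.5. The second copy of PSAH-2 (PaChr9.1485), which is not a gate gene, had the lowest ratio of this group, 14.5.

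The photosystem II genes together stood at 12.9 times the matched cells (11.8 to 14.0). The subunits of the oxygen-evolving complex had many counts: OEC33 (PaChr1.1089), the manganese-stabilizing protein, had 2056 counts in photosynthetic cells and 148 in matched cells, a ratio of 14.0, and its relative MSP-1 (PaChr2.1022) had 1051 counts against 47, a ratio of 22.5. OE23 (PaChr15.143), another protein of that complex, had a ratio of 11.3. OEC33 was the most widely seen of the 26 genes, in 54.3% of photosynthetic cells and 6.47% of matched cells. The small membrane subunits PSBX (PaChr15.1404 and PaChr16.122), PSBW (PaChr2.2019) and PSBY (PaChr14.127) had ratios of 23.7, 21.9, 20.0 and 10.54. HHL1 (PaChr6.1344), known in Arabidopsis for protecting photosystem II under high light, was the lowest of the group at 4.11 (3.33 to 5.09).

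Among the electron carriers, plastocyanin (PETE1, PaChr13.3) had 1390 counts in photosynthetic cells and 51 in matched cells, a ratio of 27.4 (20.7 to 37.0). PetM (PaChr3.2436), a small subunit of the cytochrome b6f complex, stood at 15.3, and the Rieske protein of that complex, PETC (PaChr16.636), at 5.08. Of the genes for chlorophyll and thylakoids, CURT1A (PaChr6.1944), which curves the thylakoid membrane, had a ratio of 22.7, and PORA (PaChr18.799), which makes chlorophyllide in the light, a ratio of 9.26.

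Genes of the Calvin cycle differed less between the sets, at 4.11 times together (3.82 to 4.42). The plastid aldolase FBA2 had ratios of 8.67 (PaChr10.1007) and 8.65 (PaChr21.246), and the phosphoglycerate kinase gene cPGK2 (PaChr12.1254) a ratio of 5.92. CP12, a small protein that holds 2 enzymes of the cycle in an inactive complex in the dark, had ratios of 3.43 (PaChr3.1111) and 3.16 (PaChr4.1056). APE2 (PaChr2.20), the transporter that exports triose phosphate from the plastid, had 728 counts against 303 and the lowest ratio of all 26 genes, 2.42 (2.11 to 2.77). Matched cells were thus not empty of these transcripts: 12.1% of them held a count of APE2 and 11.8% one of CP12 PaChr4.1056.

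**Figure D2:**
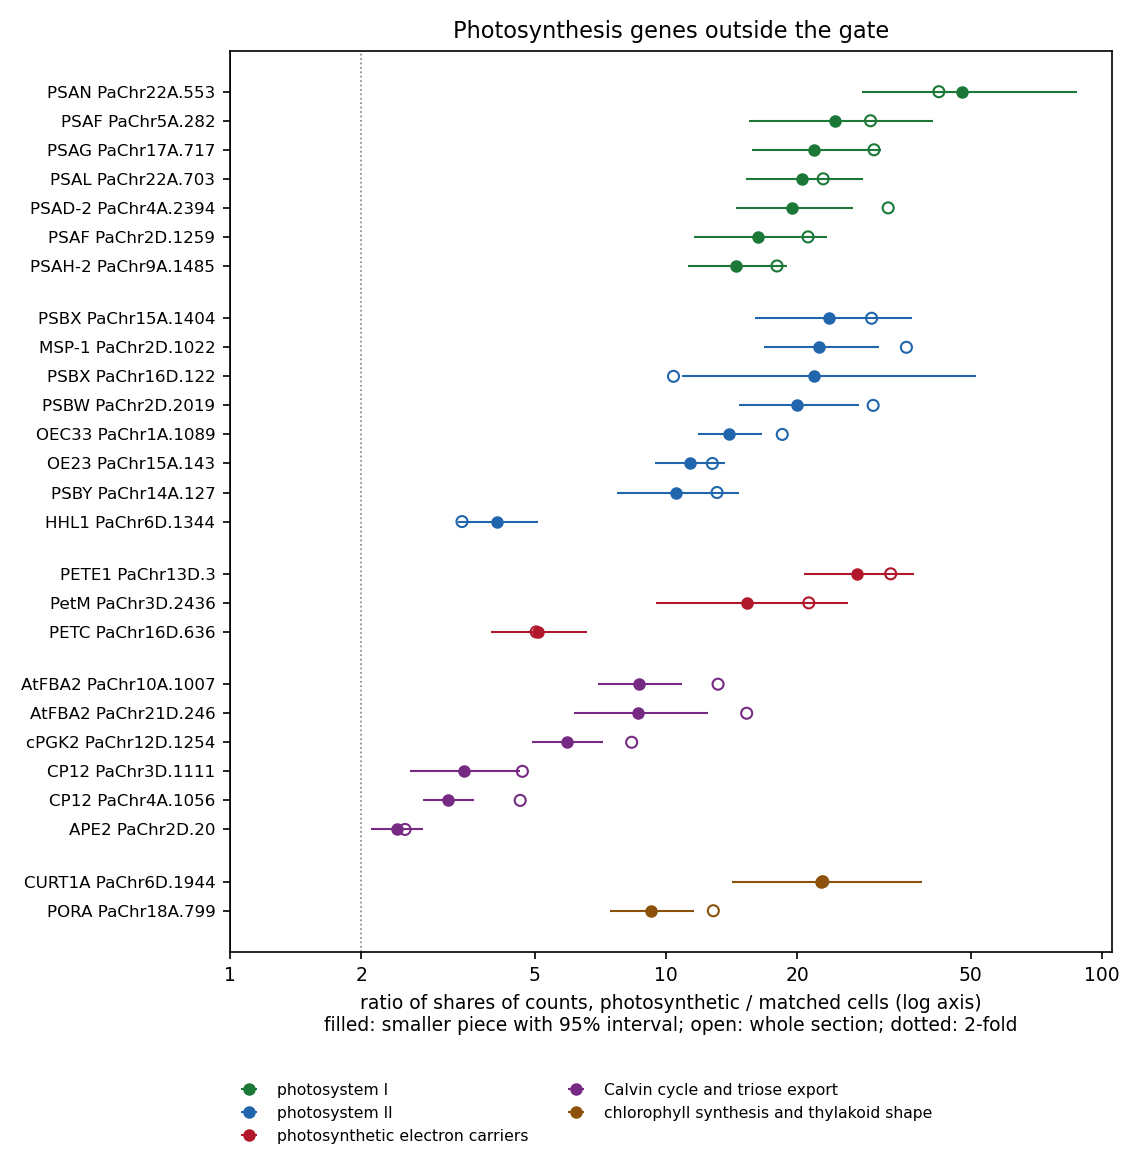
Ratio of the share of counts in photosynthetic cells to that in matched cells for each of the 26 photosynthesis genes outside the gate, on a log axis. Filled points with bars give the smaller piece with its 95% counting interval, and open points the whole section. Every filled point lies to the right of the dotted line at a ratio of 2, with APE2 at 2.42 nearest to it and PSAN at 47.7 farthest.

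Nuclear genes of the plastid ribosome and of plastid translation formed the largest related group. All 21 were at least 2-fold higher, with a median ratio of 6.37, and together they had 9310 counts in photosynthetic cells and 1594 in matched cells. Ratios ran between 2.08, for the ribosomal protein gene bL28c (PaChr9.14), and 9.53, for ATRAB8D (PaChr6.1328), which in Arabidopsis encodes the plastid elongation factor Tu. The second ATRAB8D copy (PaChr5.1277) had a ratio of 6.33. The median ratio of the photosystem I genes was 20.6, above that of each plastid translation gene.

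Transcripts of plastid genes were also counted. On unplaced scaffolds, 6 genes had names of plastid genes, and all were at least 2-fold higher in the smaller piece, with 4.06 times the counts together (3.65 to 4.52). RBCL (HiC_scaffold_622.1), the large subunit of Rubisco, had 487 counts against 64, a ratio of 7.66, and PSBB (HiC_scaffold_217.1), a core antenna of photosystem II, 537 counts against 112, a ratio of 4.82. The plastid RNA polymerase genes RPOB (HiC_scaffold_284.1) and RPOC2 (HiC_scaffold_382.2) had ratios of 2.47 and 2.77 from 76 and 55 counts in photosynthetic cells. Over the whole section RPOC2 was below 2-fold, at 1.98.

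Aquaporins of the mesophyll list differed less together than the photosynthesis groups, at 1.86 times (1.81 to 1.91). Of 6, 3 were at least 2-fold higher in photosynthetic cells, against 10.6% of all genes. They were AQP1 (PaChr8.922) at 2.75, PIP2 (PaChr5.1445) at 2.42 and the tonoplast channel GAMMA-TIP (PaChr4.264) at 2.24. The other GAMMA-TIP copy (PaChr3.290) had a ratio of 1.66. Of the remaining 47 genes of the mesophyll list, 20 were at least 2-fold higher and 5 at least 2-fold lower, with a median of 1.73. Over all genes, 10.6% were higher and 19.2% lower. Among the named ones, GDC-H1 (PaChr25.700), a protein of the glycine decarboxylase complex of photorespiration, stood at 17.2 and TL17 (PaChr25.651), a thylakoid lumen protein, at 7.19. The 2 copies of 2-Cys, a plastid peroxiredoxin, stood at 3.72 (PaChr5.1063) and 4.13 (PaChr6.1121), and RGAT1 (PaChr3.2763) at 0.469.

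The genes with the most extreme ratios over the whole section, among 5257 with at least 200 counts in both sets together, included further antenna genes. Of the 10 highest, 4 had an Arabidopsis match and 6 had none in the tables used here. LHB1B2 PaChr1.1353 had 1067 counts in photosynthetic cells and 14 in matched cells, a ratio of 76.6. The antenna gene LHCB2 had 2674 against 42 counts (PaChr3.1750) and 2621 against 44 counts (PaChr4.1557), ratios of 64.0 and 59.9. A further PORA copy, PaChr11.92, had 3969 counts against 61, a ratio of 65.4. In the smaller piece alone these 4 genes stood at 50.8, 43.7, 41.5 and 39.5. In pairs of the whole section matched also on a square, as described below, their ratios were much smaller. In the same order they were 1.16 (0.598 to 2.26), 1.30 (0.859 to 1.97), 1.17 (0.798 to 1.72) and 1.26 (0.909 to 1.76). Each of these intervals included equal shares. In all, 13 annotated genes of antenna, photosystem I, Rubisco and PORA outside the 26 were examined after their values were known, and their ratios in the smaller piece lay between 11.3 and 51.2. The small subunit of Rubisco, RBCS1A, had 2682 counts against 239 (PaChr6.850, ratio 11.3) and 1566 counts against 107 (PaChr22.687, ratio 14.7).

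At the other end, 2 of the 10 lowest genes had a match. ATMT-1 (PaChr9.74), a metallothionein that binds metal ions, had 99 counts in photosynthetic cells and 1712 in matched cells, a ratio of 0.0582, and 0.0345 in the smaller piece. LTP3 (PaChr21.94), a lipid transfer protein, had 26 counts against 407, a ratio of 0.0642, and 0.0336 in the smaller piece. PaChr10.1229 and PaChr10.1228, also matched to LTP3, went the other way in that piece. PaChr10.1229 had 4844 counts against 2322, a ratio of 2.10, and PaChr10.1228 had 728 against 148, a ratio of 4.95. When matched cells also came from the same square of 500 units, as described below, ATMT-1 stood at 0.792 (0.410 to 1.51), and at 2.26 (0.935 to 6.01) within the smaller piece. With the square over the whole section, LTP3 PaChr21.94 stood at 0.778 (0.358 to 1.66). PaChr10.1229 stood there at 0.870 (0.752 to 1.01) and PaChr10.1228 at 0.627 (0.449 to 0.869). Of the lists of other tissues in the smaller piece, where 19.2% of all genes were at least 2-fold lower, Phloem2 had the lowest summed ratio, 0.425, with 12 of 34 measured genes lower and 3 higher. Phloem1 stood at 0.863, with 8 of 50 lower and 1 higher. Vascular parenchyma followed Phloem2 at 0.679 (4 of 8 lower and 1 higher), then ground meristem at 0.728 (16 of 41 lower and 1 higher) and differentiating vasculature at 0.771 (11 of 33 lower and 3 higher). With the square over the whole section, Phloem2 stood at 1.07 (0.974 to 1.18), with 0 of 16 genes lower and 2 higher. Phloem1 stood at 1.01 there, vascular parenchyma at 1.02, ground meristem at 0.931 (0.856 to 1.01) and differentiating vasculature at 0.998. Genes also on the mesophyll list were left out of all lists of other tissues. Bundle sheath genes had a median ratio of 1.01 over 106 genes, and genes of the G2 and M phases of the cell cycle a median of 0.996 over 281 genes. The numbers of genes per cell were alike: thinned to 300 counts, the medians were 278 in photosynthetic cells and 279 in matched cells, and unthinned they were 749.5 and 766.

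The photosynthetic cells also carried transcripts of epidermal genes, although cells with PDF1 had been left out by the rule. Of the list that the study named Epidermal cell2, 39 of 48 genes were at least 2-fold higher and none lower in the smaller piece, with a median ratio of 4.69. Of Epidermal cell1, 33 of 54 were higher and 3 lower, with a median of 3.05. Over all genes of that piece, 10.6% were higher and 19.2% lower. The summed ratios of these lists were 3.55 and 2.82 in the smaller piece. They were below 1 in the 218 pairs of the whole section matched also on a square, as described below. There Epidermal cell2 stood at 0.859 (0.817 to 0.903) and Epidermal cell1 at 0.881 (0.822 to 0.945). Both lists were found by the study in the single-cell samples, and genes also on its mesophyll list were left out of them here. Genes of the cuticle were among them: CUS2 (PaChr5.2259), a cutin synthase, had 2819 counts in photosynthetic cells and 372 in matched cells, a ratio of 7.62. ATGPAT6 (PaChr1.2442), which makes cutin precursors, had 1172 counts against 164, a ratio of 7.19, and CYP86A4 (PaChr5.1590), a fatty acid hydroxylase of the same pathway, 1766 against 290, a ratio of 6.13. ATPRP2 (PaChr18.194), a proline-rich cell wall protein, had 6197 counts against 361, a ratio of 17.3.

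Gate cells with PDF1 counts, which share the smaller piece, held more of these transcripts and a like amount of photosynthesis transcripts. The Epidermal cell2 list took 352 of every 10000 counts in photosynthetic cells, against 467 in the gate cells with PDF1 and 99.1 in matched cells. The photosystem II list took 32.2 per 10000 in photosynthetic cells, 32.7 in gate cells with PDF1 and 2.504 in matched cells, and photosystem I took 23.9, 25.2 and 1.18. Aquaporins took 71.4, 48.6 and 38.5 per 10000. Among the 6 nearest cells of photosynthetic cells, 39.1% held PDF1, against 9.29% around matched cells over the whole section. Within the smaller piece these shares were 39.9% and 11.8%. In the 218 pairs matched also on a square, as described below, the difference was absent, at 25.8% around members and 27.6% around matched cells. Whether the epidermal transcripts come from neighbouring cells was not tested.

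The level of photosynthesis transcripts was graded with the gate counts, with no step at the gate. Among cells of the smaller piece with 400 to below 1600 counts, the 26 genes took 983 CPM (counts scaled to the same total for every set of cells) in cells with 0 gate counts, 2120 with 1, 4289 with 2, 6270 with 3, 7984 with 4 to 5, 9622 with 6 to 9 and 12716 with 10 or more. Cells at 2 counts, just outside, were thus nearer to those at 3 counts than to cells with none. In the larger piece, cells with 0, 1, 2 and 3 gate counts had 566, 646, 913 and 948 CPM. The interval of the 49 cells with 3 counts in the larger piece, 674 to 1297, spanned the level of cells with 0 gate counts in the smaller piece.

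**Figure D3:**
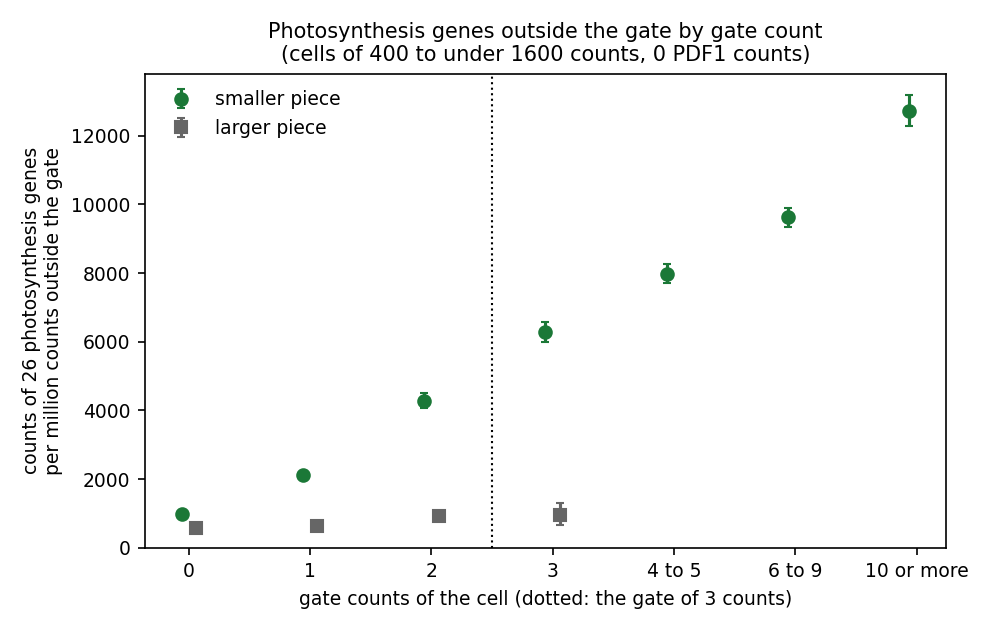
CPM of the 26 photosynthesis genes outside the gate in cells with 400 to below 1600 counts, by the gate counts of the cell, with exact 95% counting intervals. The smaller piece climbs to 12716 CPM at 10 or more gate counts, while the larger piece stays at or below 948.

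The photosynthetic cells were clustered in place, which the rule did not use. Among the 6 nearest segmented cells of a photosynthetic cell, 38.9% were photosynthetic cells themselves, against 0.336% around matched cells, and 80.9% against 1.84% of the cells had at least 1 such neighbour. Within the smaller piece the shares were 40.7% and 0.740%. Of the members of that piece, 1162, or 54.8%, lay within 1000 units of their median position, where 9.71% of all cells of the piece lay. The median distance from that position was 915 units for photosynthetic cells and 5480 units for matched cells. The position was computed from the photosynthetic cells, so these distances are tied to it.

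Around the median position of the photosynthetic cells, their share fell with distance faster than that of gate cells as a whole. The centre was set by the photosynthetic cells themselves, so a peak of their share there is tied to that choice. In rings of 500 units around the median position, they were 60.3% of cells in the innermost ring, 45.1% in the next, 17.2% between 1000 and 1500 units and 9.06% between 1500 and 2000 units, and 1.28% between 4000 and 4500 units. Gate cells at any PDF1 count were 77.5% of the innermost ring, 82.8% of the next, 70.2% and 59.9% of the following rings, and 10.1% between 4000 and 4500 units, where the rings ended and the piece went on. Cells with PDF1 ran the other way near the centre, with 19.6% in the innermost ring, 41.7% in the next, 69.5% between 1000 and 1500 units and 77.0% between 1500 and 2000 units. A member must lack PDF1, so its share in a ring is tied to that of PDF1 by the rule.

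**Figure D4:**
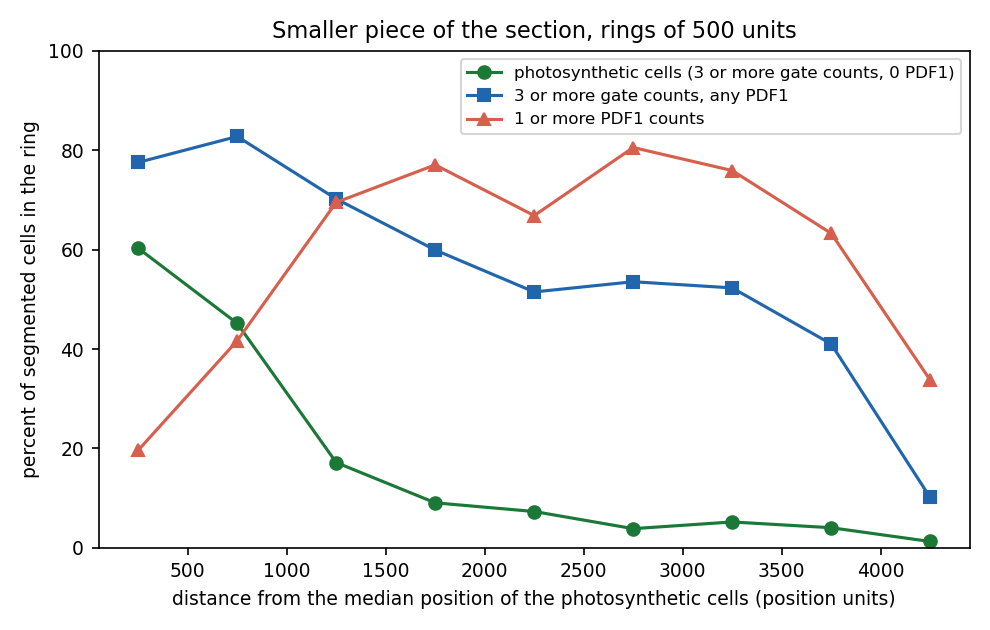
Percent of segmented cells in rings of 500 position units around the median position of the photosynthetic cells, in the smaller piece. Photosynthetic cells drop between 60.3% and 1.28%, gate cells at any PDF1 count are still at 41.0% between 3500 and 4000 units, and cells with PDF1 are at 19.6% in the innermost ring and 77.0% between 1500 and 2000 units.

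Cells close to photosynthetic cells held photosynthesis transcripts without being members. Among cells of the smaller piece that did not pass the gate and held no PDF1, 18.0% had a gate count where no neighbour was a photosynthetic cell, 60.5% where 1 was, 71.8% where 2 were, 82.3% where 3 were and 83.1% where 4 or more were. Cells among these with 0 gate counts showed the same order for the 26 other genes, which took 9.09, 29.998, 46.3, 58.2 and 76.6 of every 10000 counts, although the last 2 values rest on 25 cells each. Median totals did not climb with them, at 596 counts without such a neighbour and 438.5 counts with 4 or more.

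The contrast was much smaller between cells of the same region. When cells were matched on total counts and also on a square of 500 units of the section, an alternative chosen after seeing the data, 218 pairs were left and 2021 photosynthetic cells had no partner. Of these pairs 148 lay in the smaller and 70 in the larger piece, so the 218 members include 70 of the gated cells of the larger piece. The 26 genes took 3694 CPM in the 218 members. In the 148 members of the smaller piece they took 5529 CPM, against 8814 CPM in those of the 2116 pairs of that piece. The 26 genes together had 660 counts in the 218 members and 418 in matched cells, a ratio of 1.58 (1.40 to 1.79). Of the 20 genes measured, 4 were at least 2-fold higher, against 4.54% of all 4143 measured genes. Of the same 20 genes, 0 were at least 2-fold lower, against 3.69% of all. Their median was 1.501, beside 1.00 over all genes. Within the 148 pairs of the smaller piece the ratio of the 26 genes was 1.69 (1.48 to 1.92). Plastid translation genes had a summed ratio of 1.47 (1.24 to 1.74) over all 218 pairs and 1.65 (1.37 to 1.99) over the 148. Epidermal cell2 had a summed ratio of 0.859 (0.817 to 0.903) over the 218 pairs and 0.877 (0.826 to 0.931) over the 148, and Epidermal cell1 0.881 (0.822 to 0.945) and 0.831 (0.757 to 0.913). In the 92 pairs of the larger piece matched on total counts alone, these lists stood at 2.18 and 1.34. Around the 218 cells, 18.1% of neighbours were photosynthetic cells, against 10.2% around their matched cells.

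The reed genome holds related subgenomes, which the study marks as A and D, and 8 pairs of A and D genes with the same Arabidopsis match were compared as shares of the pair's counts. The A copy of PSAE-2, PaChr15.546, took 72.2% of the pair in photosynthetic cells of the smaller piece (70.1 to 74.2%), 71.0% in gate cells with PDF1, 62.1% in cells of that piece with fewer than 3 gate counts and 30.03% in the larger piece (28.0 to 32.1%). For PSBX the A copy took 78.0%, 72.9%, 77.5% and 45.8% in the same sets of cells. In the larger piece the D copy of PSAE-2 thus had more counts than the A copy, while the interval of PSBX there, 40.3 to 51.4%, included equal counts. For PSAH-2 the A copy took 56.7% in photosynthetic cells and 77.3% in cells with fewer than 3 gate counts, but the D copy is a gate gene and the gate removes its counts from those cells. The same holds for PSAE-2 and PSBQ, of which both copies are gate genes. CP12, FBA2, PSAF and PSBQ differed by less, with A shares of 81.1%, 71.1%, 44.2% and 65.0% in photosynthetic cells and 75.8%, 80.5%, 39.8% and 59.9% in the larger piece. For the ribosomal protein gene bL12cx they were 45.5% and 64.4%. These shares are uncertain to the extent that reads of a pair could not be told apart.

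The same rule was then applied to the single-cell libraries, in which the study had found the mesophyll marker list that holds the gate genes. Single cells with at least 500 genes were thinned to 500 UMIs, and those with 3 or more gate UMIs and 0 of PDF1 are called gated single cells. They numbered 410 in NAint61, 29 in NAint113 and 1197 in NAint191, and 32 in EU60, 17 in EU78 and 740 in EU620. As shares of cells these were 5.17%, 0.195% and 9.96% in the invasive plants and 0.280%, 0.142% and 10.7% in the EU plants. The mean was 5.11 ± 4.88% in invasive plants and 3.70 ± 6.05% in EU plants (SD, n = 3 each), a difference of 1.41 percentage points that was well within the spread (two-sided exact permutation test, p = 0.9, where the smallest p possible is 0.1). Leaving out EU60, EU78 or NAint191 turned its sign, to -0.306, -0.375 and -1.02 percentage points.

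The share moved with the batch label. In batch 1, NAint113 had 0.195%, against 0.280% in EU60 and 0.142% in EU78, a difference of -0.0160 percentage points from the mean of the EU plants. In batch 2, NAint191 had 9.96% and EU620 10.7%, a difference of -0.726 percentage points, and batch 3 held NAint61 alone at 5.17%. Each of these differences rests on 1 invasive plant, and that of batch 2 turned with the setting: NAint191 was above EU620 with the gate at 1000 UMIs (17.07% against 14.82%) and with a gate of 2 counts (16.05% against 15.77%). What differed between the batches beyond the label was not tested. Few gated single cells held PDF1: without the PDF1 condition 423 cells passed in NAint61, against 410 with it, and 830 against 740 in EU620, whereas in the section, thinned to 300 counts a cell, 1699 of 3117 gate cells, 54.5%, held it. The depths differ, at 500 UMIs in single cells and 300 counts in the section. Unthinned, 43.1% of all cells of the smaller piece held PDF1. The share with PDF1 over all single cells was not computed, so the contrast is not particular to gate cells on these values.

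Gated single cells were compared with single cells of the same plant that had no gate UMI and no PDF1 UMI after thinning, matched 1 to 1 on total UMIs, and whole counts were summed per plant. Nothing in the labels says that the plants were handled independently of their batch. The p-values therefore set the difference between gated and comparison cells of a plant against its variation over these 6 plants. That variation was estimated partly from all genes together, and each sum held between 17 and 1196 cells. With edgeR's quasi-likelihood test, the plant as a block and Benjamini-Hochberg adjustment, 27345 genes were tested and genes were called at an adjusted p below 0.05 and an absolute log2 fold change above 1. Gated cells were higher for 3275 genes, 11.98% of those tested, and lower for 2255, 8.25%. Without the block, 1720 were higher and 732 lower.

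All 26 photosynthesis genes outside the gate were higher in gated single cells, against 11.98% of all genes, with a median log2 fold change of 4.18, a range of 1.89 to 5.30 and adjusted p between 5.34e-19 and 6.69e-09 (edgeR). For 25 of them, the lowest gated sum lay above the highest comparison sum over the 6 plants, which was so for 2.46% of all genes. The 26 genes together were 12.4 times as high in gated as in comparison cells in NAint61, the plant of the section, 13.1 times in NAint113 and 8.71 times in NAint191, and 9.93 times in EU60, 6.83 times in EU78 and 18.3 times in EU620. No plant was without the difference, including those of batch 1 with 17 to 32 gated cells. The gate genes and the 26 genes are on the same marker list, found by the study in these single-cell samples. The direction of the 26 genes here is therefore not independent of how that list was made.

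Plastocyanin (PETE1, PaChr13.3) had 234, 607 and 1484 CPM in gated cells (lowest, median and highest plant), against 0, 19.0 and 34.8 in comparison cells. The groups did not overlap, and the log2 fold change was 5.30 ± 0.34 (standard error, edgeR adjusted p = 5.34e-19). PSAN (PaChr22.553), which had the highest ratio of the 26 genes in the section, had 234, 340 and 602 CPM in gated cells and 0, 7.87 and 26.2 in comparison cells, a log2 fold change of 5.01 ± 0.36 (edgeR adjusted p = 1.20e-17).

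APE2 (PaChr2.20), the lowest in the section, had 94.0, 210 and 254 CPM in gated cells and 23.8, 31.7 and 55.7 in comparison cells, again without overlap, and a log2 fold change of 2.47 ± 0.29 (edgeR adjusted p = 1.61e-10). The lowest of the 26 in single cells was CP12 PaChr4.1056, with 989, 1292 and 1395 CPM against 208, 358 and 502, and 1.89 ± 0.25 on the log2 scale (edgeR adjusted p = 6.69e-09). Only cPGK2 (PaChr12.1254) overlapped: it was at 0, 121 and 296 CPM in gated cells and 0, 16.4 and 30.2 in comparison cells, and was above in 5 of 6 plants (log2 fold change 3.44 ± 0.34, edgeR adjusted p = 1.08e-12).

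As in the section, the Calvin cycle genes had the smallest median of the photosynthesis groups. Photosystem II genes had a median log2 fold change of 4.61, photosystem I genes 4.37 and electron carriers 4.05, and the Calvin cycle genes were lower at 2.96. All 21 plastid translation genes were higher, with a median of 3.53, and so were the 6 plastid genes on scaffolds, with a median of 2.32. RBCL (HiC_scaffold_622.1) had 195, 378 and 698 CPM in gated cells and 0, 42.8 and 74.2 in comparison cells, a log2 fold change of 3.27 ± 0.31 (edgeR adjusted p = 2.75e-13). All 6 aquaporins were higher, with a median of 1.69, whereas 3 of them were at least 2-fold higher in the smaller piece. Of the other mesophyll genes, 25 of 47 were higher and none lower.

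The antenna genes at the top of the section were also higher in gated single cells. LHCB2 PaChr3.1750 had 130, 229 and 708 CPM, against 0, 2.49 and 10.2 in comparison cells, and a log2 fold change of 6.06 ± 0.37 (edgeR adjusted p = 2.29e-19). LHCB2 PaChr4.1557 had 32.9, 234 and 686 CPM against 0, 2.45 and 11.4. PORA PaChr11.92 had 37.6, 139 and 416 against 0, 2.07 and 26.6, without overlap of the groups. Of the 2 lowest named genes of the section, ATMT-1 (PaChr9.74) was lower in gated cells too, at -2.73 (edgeR adjusted p = 3.54e-08), although EU78 had 39.0 CPM in gated cells and 0 in comparison cells. Its value leans on NAint61, with 12.7 CPM against 198, and was -1.92 without that plant (edgeR adjusted p = 6.15e-05). It was not called without the plant block (edgeR adjusted p = 0.0894) or by DESeq2 (adjusted p = 0.0609). LTP3 (PaChr21.94) was at 0 in the gated cells of every plant but EU620, where it had 2.35 CPM against 0.327, and was not called (log2 fold change 2.29, edgeR adjusted p = 0.0674).

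With cells of the smaller piece matched on total counts alone, epidermal genes went in opposite directions in the 2 data sets. In gated single cells, 42 of 48 genes of Epidermal cell2 were lower and 3 higher, with a median log2 fold change of -3.00, and 42 of 55 genes of Epidermal cell1 were lower and none higher, with a median of -2.88, against 8.25% of all genes called lower. Of 87 genes in either list that were measured in both, 58 were at least 2-fold higher in photosynthetic cells of the smaller piece, and of these 56 were lower and 0 higher in gated single cells. CUS2 PaChr5.2259, at 7.62 times in the section, had a log2 fold change of -2.82 ± 0.33 in single cells (edgeR adjusted p = 2.70e-10), and ATPRP2 PaChr18.194, at 17.3 times, one of -3.29 ± 0.36 (edgeR adjusted p = 2.35e-11). Among the 218 pairs within a square of 500 units these 2 genes stood at 0.703 (0.495 to 0.992) and 0.799 (0.637 to 1.00) in the section. The summed ratios there were 0.859 (0.817 to 0.903) for Epidermal cell2 and 0.881 (0.822 to 0.945) for Epidermal cell1, below 1. The lists are markers found by the study in these single cells, taken without genes of the mesophyll list. Their direction in gated single cells is therefore not independent of how the lists were made. The difference between the data sets itself was not tested.

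Protoderm and bundle sheath lists were lower in gated single cells as well, with 16 of 19 genes of Protoderm1, 201 of 298 of Protoderm2 and 85 of 158 of bundle sheath called lower and none higher, against 8.25% of all genes called lower. These lists were made in the same way as the epidermal lists, so this direction is not independent of them either. In photosynthetic cells of the smaller piece, 9 of 19 Protoderm1 genes were at least 2-fold higher and none lower, against 10.6% of all genes higher. Of Protoderm2, 31 of 193 were higher and 20 lower there, with a median ratio of 1.01. For bundle sheath 9 of 106 were higher and 16 lower, shares below the 10.6% and 19.2% of all genes. In pairs of the whole section matched also on a square, the summed ratio of Protoderm1 was 0.845 (0.743 to 0.961). Protoderm2 stood there at 0.911 (0.863 to 0.962) and bundle sheath at 0.963 (0.894 to 1.04). The A copy of PSAE-2 took 55.3 to 71.8% of the pair in gated cells of the 6 plants, and 62.7% in NAint61, beside the 72.2% of photosynthetic cells in the section of that plant. For PSBX the A copy took 48.4 to 70.0%, and 66.8% in NAint61, beside 78.0% in the section.

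**Figure D5:**
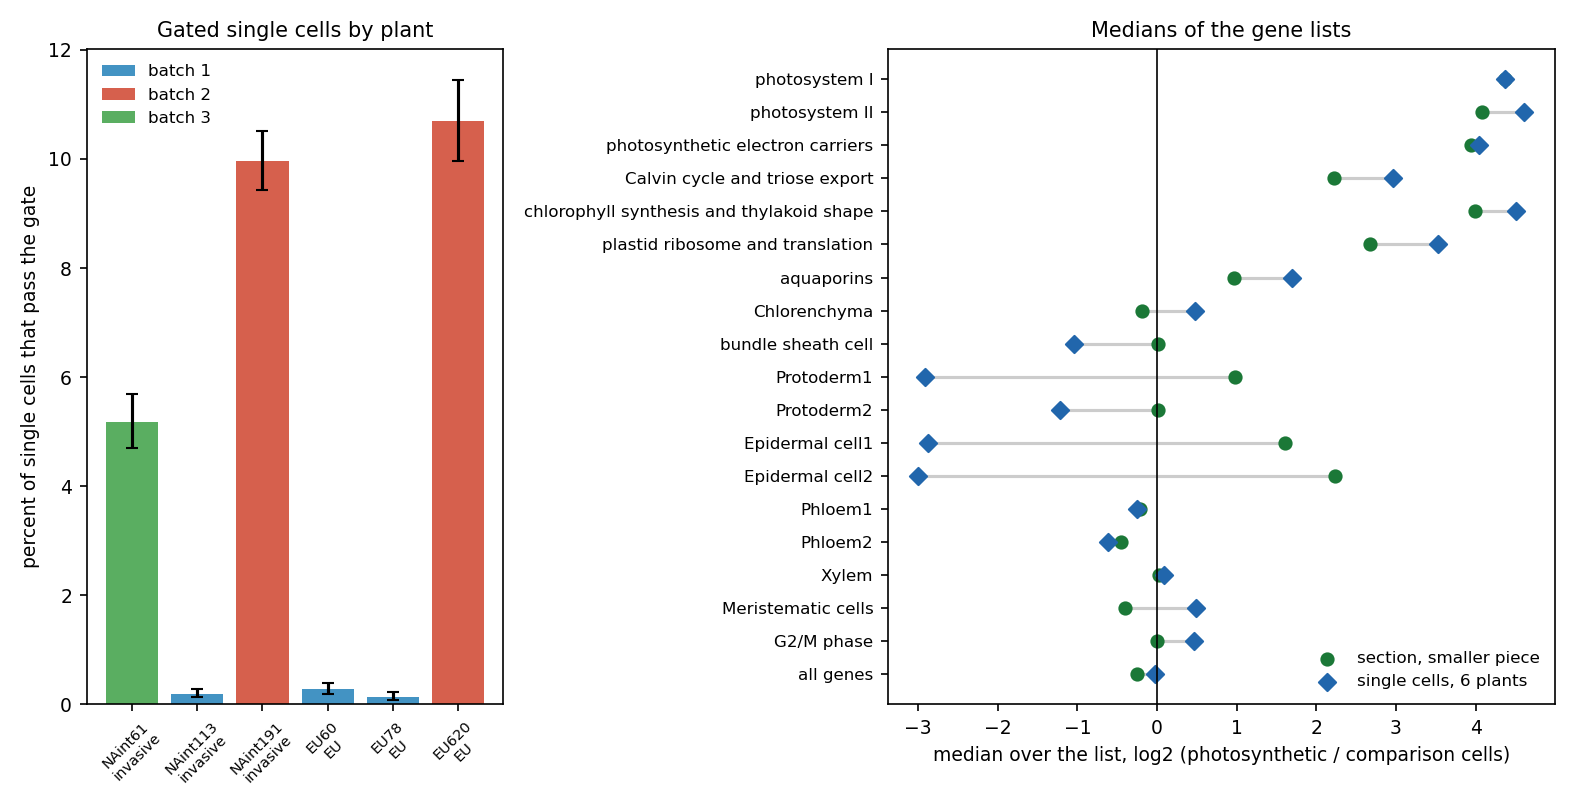
Left, percent of single cells that pass the gate in each plant, coloured by batch label: the 3 plants of batch 1 are at or below 0.280%, NAint61 is at 5.17% and the 2 plants of batch 2 are at 9.96% and 10.7%. Right, median over each list as log2 ratio in photosynthetic cells of the smaller piece (circles) and in gated single cells of 6 plants (diamonds), where photosynthesis lists lie right of 0 in both and the epidermal lists lie on opposite sides.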

How the data were processed

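The authors deposited raw UMI counts per gene and cell for 6 single-cell libraries, made with Cell Ranger 8.0, and raw counts per gene and segmented cell for 1 section, aligned with STAR and assigned to cells with BSTMatrix and Cellpose. The reference was the study's modified assembly of the reed with transferred gene models, and no filter on cells had been applied to the section. Reads of near-identical copies may have been split between copies by this counting. Samples were grouped by the titles of the GEO records. Arabidopsis matches were taken from the study's tables for 1318 genes by feature identifier, and gene positions and sequences were not used here. The members, gene lists and tests were chosen with earlier results of these data known. The named genes were the 9 gate genes, the photosynthesis lists, and the 10 highest and 10 lowest ratios among genes with at least 200 counts. Other genes were named from lists after their values were seen.

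In the section, counts were summed over photosynthetic and over matched cells (drawn without replacement, seed 1), and the ratio of shares was given with an exact conditional binomial 95% interval, after removal of the gate genes from the totals. Intervals cover counting error only. Cells of 1 section are not replicates, so no test was made. Pieces, neighbours and distances were computed from the centres of the outlines. Single cells were thinned once without replacement, and plants with under 10 gated cells would have been left out, but none was. Genes with fewer than 10 counts in every sum were left out. Both sums of a plant come from the same plant, which is the source of the pairing in the fit. Fits were made with edgeR 4.0.16 (TMM, quasi-likelihood, standard error as the absolute log2 fold change over the root of F) in R 4.3.3, with DESeq2 1.42.0 as an alternative, after the scripts were tested on simulated data. Shares were compared with SciPy 1.17.1. Alternatives covered the gate, depth, matching, piece, filter, normalization, tool, block and each plant left out.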

Additional observations from a re-analysis of the deposited data

How the results depend on the processing

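The 26 photosynthesis genes outside the gate were all higher in gated single cells under all 12 alternatives, and all at least 2-fold higher in the section under every alternative but those noted here. Their summed ratio over the section, 11.99, was 9.59 with a gate of 2 counts, 13.6 with a gate of 5, 9.01 with the gate applied after thinning to 300 counts, 9.80 in the smaller piece alone, 1.08 in the larger piece alone and 1.58 with matching on a 500-unit square, where 4 genes were at least 2-fold higher, and 1.69 with that square within the smaller piece, with 4 again. There ATMT-1 PaChr9.74 turned to 2.26 (0.935 to 6.01). In the larger piece no photosynthesis gene reached 20 counts, so no count of them was given. Genes at least 2-fold higher numbered 2137, and 4153 without a minimum count, 115 in the larger piece, 188 with the square and 114 with the square in the smaller piece, where fewer cells were compared. Genes at least 2-fold lower numbered 6222, and 9922 without matching, 11100 without a minimum count, 4080 in the smaller piece, 131 in the larger piece, 153 with the square and 84 with the square in the smaller piece. The square, alone and within the smaller piece, the restriction to pieces of tissue and the gate without LHB1B2 were chosen after seeing the data. Read from the other 8 gate genes within the smaller piece, LHB1B2 stood at 32.1, PSBQ PaChr15.855 at 15.96 and PSAE-2 PaChr16.970 at 9.98. The excess of photosynthetic cells among neighbours, 38.6 percentage points, was 37.2 with 12 neighbours and 33.7 with a gate of 5.

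In single cells, 5530 genes were called with the plant as a replicate block, and 2452 without the block, 1720 higher and 732 lower. DESeq2 called 3974, of which 1250 were lower. Leaving out each plant gave 4100 to 5526. Without the block ATMT-1 PaChr9.74 was no longer called (-3.02, edgeR adjusted p = 0.0894), nor with DESeq2 (-1.96, adjusted p = 0.0609), and without NAint61 LTP3 PaChr21.94 was called (2.41, edgeR adjusted p = 0.0413). The difference in gated share, 1.41 percentage points, was 3.37 with the gate at 1000 UMIs (exact permutation p = 0.6), 2.98 with a gate of 2 counts, 0.101 with a gate of 5 and between -1.02 and 4.90 without each plant in turn. The replicate numbers of invasive and EU plants only name the plants, so this share was not paired. Precision is limited by few gated cells in the larger piece, with 93, and in batch 1, with 17 to 32 a plant. The cause of these shifts was not tested.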
